A study of Mus musculus with 2 samples.

Results

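The genes described here encode the respiratory chain and the ATP synthase of mitochondria. They were chosen by gene symbol: the protein-coding Nduf, Sdh, Uqcr, Cox4 to Cox8 and Atp5 genes, the mitochondrial mt-Nd, mt-Co, mt-Cytb and mt-Atp genes, and Cyc1 and Cycs. The rule leaves out Ndufa4l2 and Cox4i2 and uses no measured value. It found 106 genes of the 43346 Ensembl genes in each table, 93 in the nucleus and 13 on mitochondrial DNA. The study sequenced total RNA from whole lungs of healthy B6NCrl mouse embryos at 15.5 days, male and female embryos together. It has a single group of 2 biological replicates, with no treatment and no altered genotype. Replicate 1 was a pool of lungs from 78 embryos and replicate 2 a pool from 62, each with 1 library made from 10 ng of RNA of more than 200 nt. Because animals were pooled, the spread between libraries is the spread between pools, and tissue from neighbouring organs can enter a pool. The libraries held 40395850 and 36601054 estimated reads.

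The respiratory chain sits in the inner mitochondrial membrane. Complex I takes electrons from NADH and complex II from succinate, complex III hands them to cytochrome c, and complex IV, cytochrome c oxidase, passes them to oxygen. Complexes I, III and IV pump protons, and complex V, the ATP synthase, makes ATP from the returning protons. Most subunits are encoded in the nucleus and imported, while a few hydrophobic ones are encoded on mitochondrial DNA and made inside the organelle. The citric acid cycle feeds the chain, and complex II belongs to both.

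Levels are given in TPM, a share of all transcripts that corrects for gene length, so levels of different genes can be set side by side. Values per library are given for replicate 1 and then replicate 2, and means are ± SD over the libraries (n = 2). The tables also give an interval for each TPM, which covers counting and the division of reads among similar genes. Levels of a pair of genes are called separated, or different, when in each library the same gene is higher and its interval lies clear of the other's. With 1 group no test of a condition exists, and the only contrast is one pool against the other. Since whole lung was sequenced, fewer cells of a type and less RNA per cell cannot be told apart.

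Part of the mitochondrial genome has a nearly identical copy in the nucleus, and the tables assign reads to this copy over stretches of 6 of the 13 mitochondrial genes. The copy lies on the minus strand of chr1:24611535-24616197 (GRCm38) and is listed as 7 unprocessed pseudogenes over 4663 nt. The one without reads is Gm28439, which does not differ from mt-Nd4 over 876 bases. The windows below show the only base that differed in the aligned part of mt-Nd3 and of mt-Co1, in capitals, and the first bases of mt-Co3 and mt-Co2, which did not differ from their copies anywhere in the aligned part. Positions of differences are counted from 1 at the first base of the mitochondrial transcript, with its base first.
mt-Nd3 (chrM:9459-9499, plus strand): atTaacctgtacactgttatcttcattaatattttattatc
Gm28438 (chr1:24613079-24613119, minus strand): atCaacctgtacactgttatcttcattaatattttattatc
mt-Co1 (chrM:6390-6430, plus strand): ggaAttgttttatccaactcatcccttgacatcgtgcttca
Gm29216 (chr1:24616148-24616188, minus strand): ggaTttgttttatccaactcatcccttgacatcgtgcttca
mt-Co3 (chrM:8607-8647, plus strand): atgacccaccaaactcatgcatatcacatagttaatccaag
Gm28437 (chr1:24613931-24613971, minus strand): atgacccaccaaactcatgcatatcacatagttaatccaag
mt-Co2 (chrM:7013-7053, plus strand): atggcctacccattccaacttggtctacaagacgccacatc
Gm28661 (chr1:24615525-24615565, minus strand): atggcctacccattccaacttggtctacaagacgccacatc

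The difference between mt-Nd3 and Gm28438 was T3C, the only one in 345 aligned bases. Between mt-Co1 and Gm29216 it was A1066T, the only one in 483 aligned bases of the 492-base copy. The copies of mt-Co3 (783 bases), mt-Co2 (681), mt-Atp6 (678) and mt-Nd4l (294) had none. In all 4 genes shown, the distance between gene and copy was the same base for base, so there was no net insertion or deletion along the copy. A read from such a stretch fits the gene and the copy equally well, and whether it came from one or the other cannot be told apart. The listed copies held 32.8% and 34.2% of the reads given to mitochondrial mRNAs and their copies together. For this reason the levels of these genes are given alone and also pooled, with the reads of gene and copies divided by the gene's own effective length.

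Of the 106 genes, 103 reached 1 TPM in each library and so count as detected, against 60.7% of the 21474 protein-coding genes listed. The other genes were Cox7b2, Cox8c and mt-Nd4l, which are taken up below. A mean of 100 TPM or more was reached by 86 of them, a level that 12.3% of the 13032 detected protein-coding genes reached. Those at 1000 TPM or more numbered 8, and Atp5b was the only nuclear gene among them. Together the 106 genes held 5.55% ± 0.0688 of the TPM of all Ensembl genes (5.50% and 5.60%). The detected nuclear genes accounted for 3.25% ± 0.0831 and the mitochondrial ones for 2.30% ± 0.0184.

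**Figure D1:**
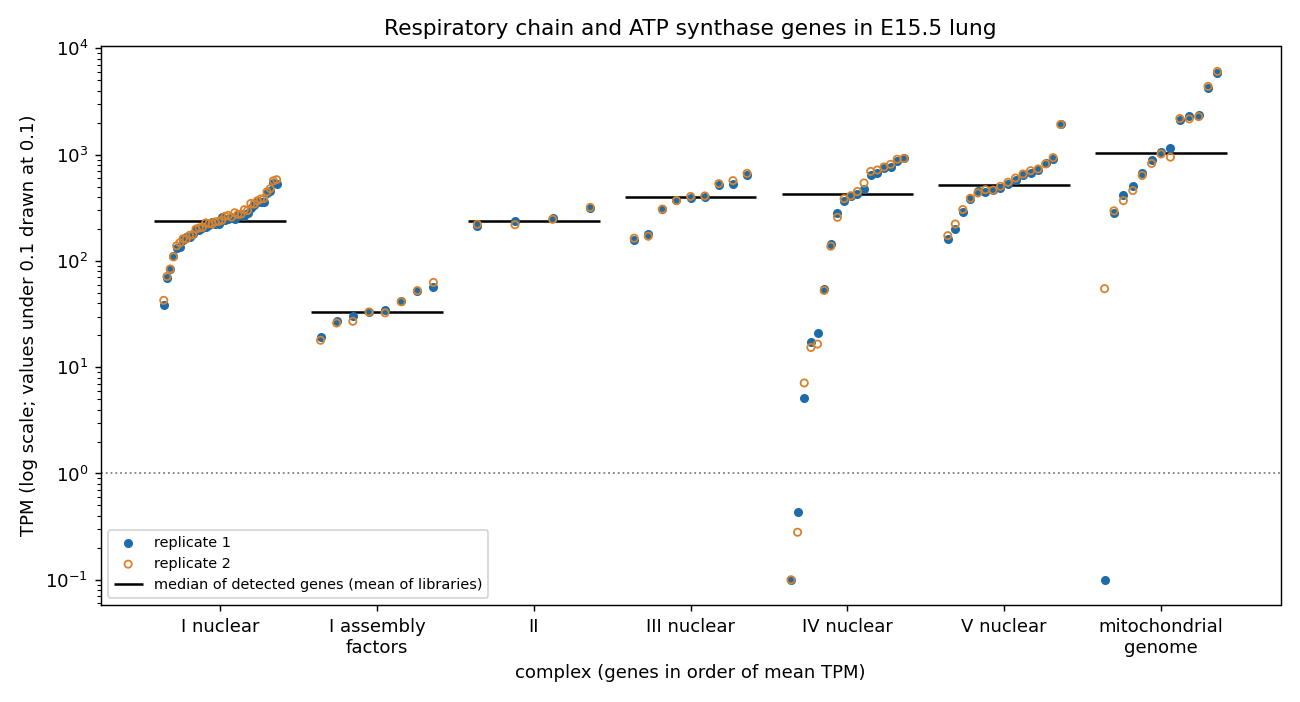
TPM (log scale) of the genes in replicate 1 (filled) and replicate 2 (open), grouped by complex and ordered by mean within a group, with the median of detected genes as a black line and 1 TPM dotted. Cycs and Atp5s are not drawn, and a level of 0 is drawn at a small positive value. Structural genes of the complexes lie mostly above 100 TPM in both libraries, the complex I assembly factors lie between 17.9 and 62.8 TPM, and complex IV has a tail that reaches 0.

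The complexes differed in level. The median over detected structural genes, mitochondrial ones included, was 239 ± 6.94 TPM in complex II, 259 ± 9.15 in complex I, 402 ± 7.30 in complex III, 509 ± 45.9 in complex IV and 566 ± 14.8 in complex V. The library medians of complex V, 556 and 577 TPM, were both above those of complex IV, 477 and 542, and the 4 values did not overlap. This order of complexes IV and V is not firm, since with reads of gene and copies pooled complex IV had 650 ± 61.0 TPM and complex V 622 ± 16.3. Over nuclear genes alone the order was complex I at 238 ± 1.17 TPM, complex II at 239 ± 6.94, complex III at 400 ± 6.62, complex IV at 424 ± 9.00 and complex V at 518 ± 13.9. The gap between complexes I and II was within the spread between libraries.

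Mitochondrial mRNAs as a group stood above the nuclear ones. Their median was 1045 ± 89.4 TPM over 12 detected genes, and that of the 82 detected nuclear structural genes was 296 ± 11.8 TPM. The ratio of these medians was 3.85 in replicate 1 and 3.23 in replicate 2, or 3.54 ± 0.443. Its size depends on how the shared reads are divided: it was 6.20 ± 0.273 with the posterior mean TPM, another estimate in the same tables, and 7.35 ± 0.352 with reads of genes and copies pooled. In each of these forms and in each library the mitochondrial median was the higher one.

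Complex V holds the highest mitochondrial values as deposited. mt-Atp6 and mt-Atp8, subunits a and A6L of the membrane part of the ATP synthase, lie on a shared mRNA with overlapping reading frames. mt-Atp6 had 5933 and 6085 TPM and mt-Atp8 4283 and 4392. Their intervals overlapped, since that of mt-Atp6 reached from 3852 to 5973 TPM in replicate 1. The Atp6 copy, Gm10925, took only 7.72% and 6.45% of the pooled reads although it does not differ from the gene over 678 bases.

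mt-Co3, the third large subunit of cytochrome c oxidase, follows mt-Atp6 directly on the mitochondrial genome. It was listed at 1150 and 948 TPM with intervals from 805 to 5812 and from 635 to 5719, while its copy Gm28437 was listed at 6988 and 7324 TPM. The copy thus took 85.9% and 88.5% of the reads. Pooled, mt-Co3 had 8194 ± 95.3 TPM, above mt-Atp6 at 6466 ± 53.6, so these neighbours and mt-Atp8 were the 3 highest of the 106 genes by pooled level. mt-Atp8 has only 204 nt, and its reads are divided by an effective length 99 nt shorter. Its place among the 3 depends on this length correction.

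The catalytic subunits of cytochrome c oxidase, mt-Co1 and mt-Co2, carry its haem and copper centres. mt-Co1 had 2113 and 2188 TPM with narrow intervals, and its copy matches 483 of its 1545 bases and took 23.0% and 21.4% of the reads. mt-Co2 had 891 and 827 TPM with intervals from 774 to 2811 and from 879 to 2644. Its copy held 72.3% and 75.8% of the reads, and the pooled level of mt-Co2, 3322 ± 147 TPM, was above that of mt-Co1, 2763 ± 28.3. As deposited the order of this pair was the opposite.

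In complex III, mt-Cytb, cytochrome b, had 2377 and 2281 TPM. No listed copy met the criteria for this gene, and its intervals were narrow. The complex I subunit mt-Nd1, with 2333 and 2171 TPM, had none either, and mt-Cytb was above it by the rule for levels. mt-Nd4 had 1067 and 1015 TPM, with 0 reads on its copy Gm28439. mt-Nd2 had 669 and 638 TPM, and its copy Gm13339 on chromosome 2 held 0 and 1.39 reads. These complex I subunits build the membrane arm that pumps protons.

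Lower values were found for mt-Nd5, at 416 and 369 TPM, and for mt-Nd6, at 505 and 460 TPM. mt-Nd6 is the only mRNA encoded on the opposite mitochondrial strand, and its end overlaps that of mt-Nd5. The use of strand in counting is not given in the sources used here, so reads in that overlap cannot be told apart. mt-Nd3 had 282 and 296 TPM as deposited and 1251 ± 18.9 pooled.

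mt-Nd4l, the smallest mitochondrial complex I gene, was listed at 0 and 54.9 TPM, with intervals from about 0 to 64.6 and from 21.3 to 155. Its copy Gm10222 was listed at 594 and 574 TPM. The pooled level was 603 ± 24.9 TPM, so the listed absence in replicate 1 came with reads on a copy that does not differ in 294 bases. mt-Nd4l is read from the same mRNA as mt-Nd4, which had 1041 ± 36.4 TPM. Of the 11 neighbouring pairs in the deposited order of detected mitochondrial genes, 6 were separated by the rule for levels, and mt-Atp6 with mt-Atp8 and the pairs from mt-Nd1 down to mt-Co2 were not.

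**Figure D2:**
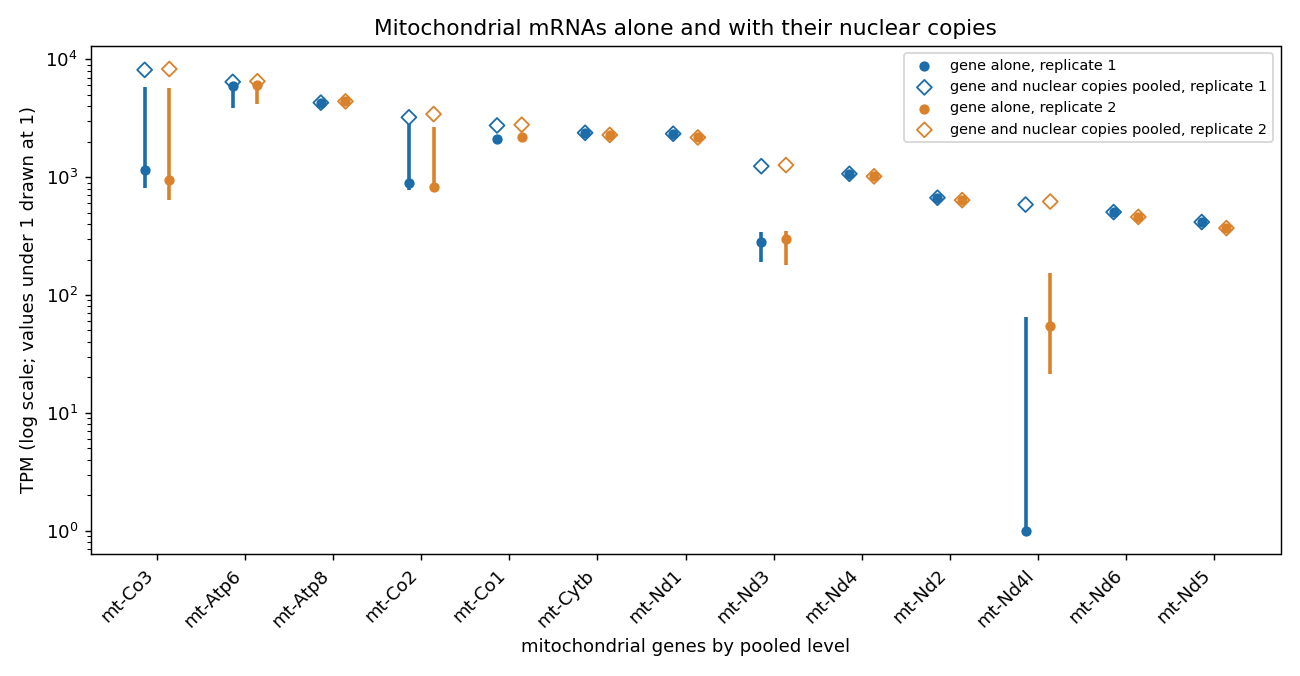
TPM (log scale) of the 13 mitochondrial genes in both libraries, as deposited (dots, with the deposited interval as a bar) and with the reads of nuclear copies pooled (diamonds). The bars are long for mt-Co3, mt-Co2 and mt-Nd4l, and pooling lifts mt-Co3 from 1049 ± 142 to 8194 ± 95.3 TPM, while mt-Cytb, mt-Nd1, mt-Nd4, mt-Nd6 and mt-Atp8 have no added reads and mt-Nd2 and mt-Nd5 at most 1.39 in a library.

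Complex I is the largest complex, with 36 nuclear structural genes here, all detected. Its 7 nuclear core genes, which carry the flavin and the iron-sulfur clusters, had a median of 199 ± 1.44 TPM and a range from Ndufs1 to Ndufs7. Ndufs1 had 111 and 109 TPM, and Ndufv1, which binds NADH, 169 and 161. Ndufs8, at the median, had 198 and 200 TPM, and Ndufs7 272 and 276. The core genes thus lay within a range of 2.49-fold.

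The 29 nuclear accessory genes of complex I had a median of 254 ± 12.1 TPM and ranged more widely, over 13.8-fold. At the top were Ndufc1, with 533 and 582 TPM, and Ndufab1, with 538 and 568, whose intervals overlapped. Ndufb8 followed with 455 and 479 TPM and Ndufa3 with 439 and 447. This order is over all transcripts. Coding ones held 52% and 54% of the level of Ndufc1 and 50% and 50% of that of Ndufab1. For Ndufb8 they held 87% and 86%, and for Ndufa3 92% and 93%. Ndufab1 is also the acyl carrier protein of mitochondrial fatty acid synthesis. At the low end was Ndufa11, with 68.7 and 71.5 TPM, and below it Ndufb4, with 38.4 and 42.6. Of the 35 neighbouring pairs in the order of the nuclear structural genes, only 10 were separated, so the middle of the order cannot be resolved.

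The last place of Ndufb4 did not hold with reads pooled. Its copy Ndufb4c, a processed pseudogene, matches it over 390 bases without a difference and was listed at 268 and 297 TPM, or 76.4% and 78.5% of the pooled reads. Pooled, Ndufb4 had 181 ± 25.3 TPM, inside the range of the other accessory genes. With the TPM of its copies added instead, Ndufb4 had 306 and 340 TPM.

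The 8 complex I assembly factors, Ndufaf1 to Ndufaf8, help to build the complex and are not part of the finished enzyme. Detection was complete, the median was 33.2 ± 0.573 TPM, and levels ran from Ndufaf5 at 19.4 and 17.9 TPM to Ndufaf8 at 56.9 and 62.8. The highest was below the structural median of complex I. Among the structural genes of the complex only Ndufb4 and mt-Nd4l, before pooling, were as low. Atp5s, a factor associated with the ATP synthase, had 14.4 and 12.8 TPM.

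Succinate dehydrogenase, complex II, had the most even levels, within 1.45-fold. Sdhb, the iron-sulfur subunit, had 313 and 319 TPM and was above the other genes of the complex. The membrane anchors Sdhd, with 252 and 246 TPM, and Sdhc, with 214 and 221, and the flavoprotein Sdha, with 236 and 219, could not be put in order throughout, since neighbouring intervals overlapped.

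Among the nuclear genes of complex III the small subunits without a redox centre led. Uqcr10 had 645 and 667 TPM and Uqcr11 531 and 571, and these were separated. Uqcrb had 515 and 534 TPM, Uqcrh, the acidic hinge protein, 398 and 409, and Uqcrq 395 and 405. Cyc1, cytochrome c1, which passes electrons on to cytochrome c, had 308 and 308 TPM. The Rieske iron-sulfur protein gene Uqcrfs1 had 178 and 171 TPM and the core protein gene Uqcrc2 156 and 164, which overlapped. The other core protein gene, Uqcrc1, was higher, at 377 and 369 TPM, in both libraries.

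Cytochrome c, the carrier between complexes III and IV, was listed low. Cycs had 47.2 and 50.6 TPM, below every structural gene of complex III. It has several copies, of which Gm10053 on chromosome 19, listed as protein-coding, differed at 1 of 946 aligned bases and had 178 and 182 TPM. A processed pseudogene on chromosome 5, Gm10108, had 326 and 341 TPM. Copies took 62.8% and 61.3% of the pooled reads, and the pooled level of Cycs was 129 ± 2.73 TPM. Pooling divides the reads by the effective length of Cycs, whose main transcript has 3123 nt, while these copies have 946 and 319 bases. The pooled level was therefore below the listed level of either copy. The testis gene of cytochrome c, Cyct, was at 0.07 TPM in each library.

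Complex IV, several of whose subunits are known to have tissue-specific forms, showed the widest spread of levels. At the top of its nuclear genes were Cox6b1, with 926 and 922 TPM, and Cox4i1, with 865 and 907, whose intervals overlapped. Next came Ndufa4, with 764 and 812 TPM, which is named for complex I and counted here with complex IV, where its protein is known to sit. Cox6c had 642 and 696 TPM, Cox7c 477 and 542, Cox5b 427 and 450, and Cox5a 409 and 411. Cox5a and Cox5b, which sit on the matrix side, were not separated from each other.

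The liver-type or ubiquitous form was the main one in each set of paralogues. Cox6a1 had 754 and 767 TPM and the heart and skeletal muscle form Cox6a2 had 21.03 and 16.5, a ratio of 41.1 ± 7.49. Cox7a2 had 365 and 386 TPM and the muscle form Cox7a1 had 17.4 and 15.3, a ratio of 23.1 ± 2.97. For Cox8a, at 677 and 718 TPM, and the muscle form Cox8b, at 5.17 and 7.11, the ratio was 116 ± 21.2. In all 3 sets the intervals of the main form and the muscle form were apart in both libraries.

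Forms known from testis were mostly absent. Cox8c had no read in either library, which allows up to 0.301 and 0.323 TPM, and Cox7b2 had 0.43 and 0.28 TPM from 5 and 3 reads. The main form Cox7b had 280 and 258 TPM over all transcripts, of which its coding transcript held 46.0% and 53.0%. Cox6b2 was the exception, with 54.2 and 52.8 TPM, against 926 and 922 for Cox6b1, a ratio of 17.3 ± 0.283. Cox7a2l, which helps to join complexes into supercomplexes, had 145 and 138 TPM.

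Cox4i2 and Ndufa4l2, which the rule leaves out, are relatives of complex IV subunits known for low-oxygen induction. Cox4i2, also known as a lung form, was at 68.5 and 62.7 TPM, and Cox4i1 was 13.6 ± 1.31 times higher. Ndufa4l2 was at 75.4 and 69.7 TPM, and Ndufa4 was 10.9 ± 1.07 times higher. By mean level both relatives were above the muscle forms.

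**Figure D3:**
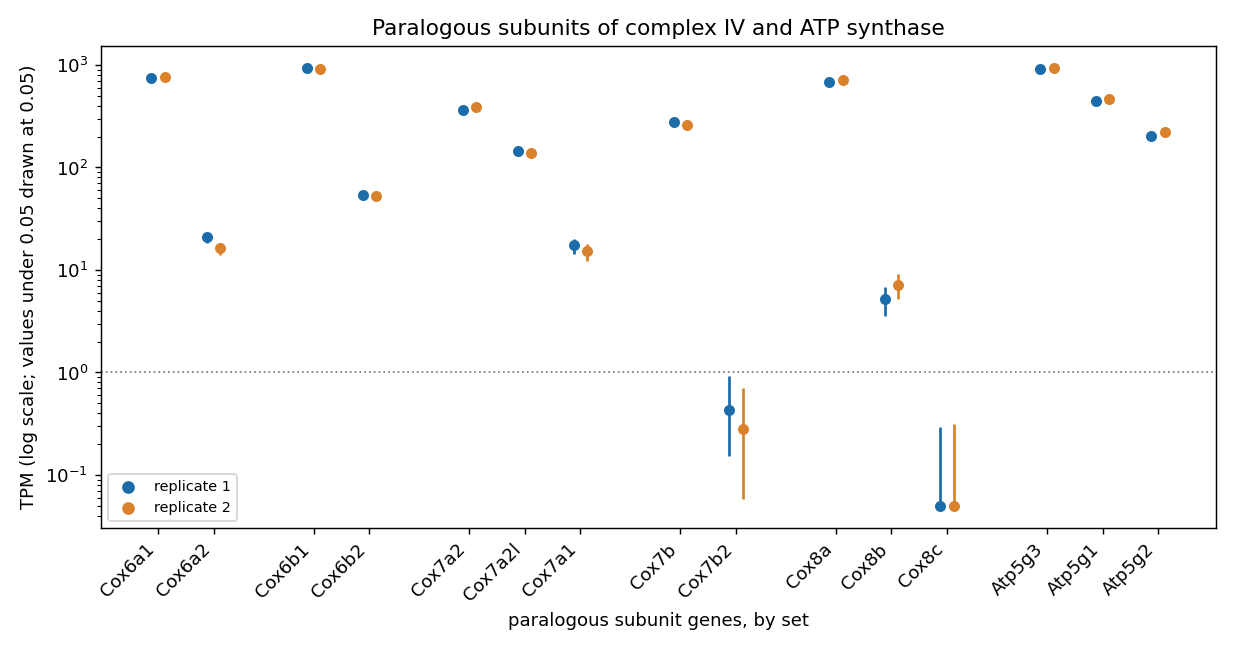
TPM (log scale) of paralogous subunit genes of complex IV and of the ATP synthase c subunit in both libraries, with the deposited intervals as bars and 1 TPM dotted. Cox6a1, Cox7a2 and Cox8a lie above 300 TPM and their muscle forms at 21.03 TPM or less, while the 3 c-subunit genes lie within the range from 201 to 938 TPM.

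Genes of heart and skeletal muscle were present in these lung pools. All 12 markers on the list for these muscles were detected, with a summed level of 1207 and 822 TPM. Between the libraries 3 of the 12 were apart with the higher level in replicate 1, namely Myl7, with 609 and 228 TPM, Nppa and Myh6. Another 4 were apart with the higher level in replicate 2, namely Myl2, with 25.8 and 119 TPM, Myl3, Myh7 and Acta1. The other 5 were not apart: Tnnt2 had 160 and 132 TPM, Tnni3 99.01 and 68.7, Ckm 34.6 and 34.6, Actn2 21.5 and 20.8, and Tcap 6.32 and 4.26. None of the 3 muscle forms of complex IV subunits was apart by the same rule. Cox6a2 was at 21.03 and 16.5 TPM, Cox7a1 at 17.4 and 15.3 and Cox8b at 5.17 and 7.11, with overlapping intervals once scaled. As deposited, the intervals of Cox6a2, 18.4 to 22.9 and 14.1 to 18.3 TPM, just missed each other. The part of muscle tissue in the levels of these forms was not tested. Of the 6 lung markers all were detected, with Sftpc, a surfactant protein gene, at 6881 and 5864 TPM, and all 3 brown fat markers were below 1 TPM. Of 8 liver markers 6 were detected and all 6 were apart with the higher level in replicate 2, of 7 thymus markers 3 were detected and 2 were apart with the higher level in replicate 1, and all 7 red blood cell markers were detected with none apart.

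Complex V had the highest nuclear median. Atp5b, the catalytic beta subunit (chromosome 10, 128083273 to 128090391, GRCm38), had 1934 and 1925 TPM and was separated from every other nuclear gene of the complex. Atp5a1, the alpha subunit, had 831 and 819 TPM, so the ratio of beta to alpha over all transcripts was 2.34 ± 0.0165. The enzyme holds these subunits in equal number. A 478-nt transcript of no coding type held 25.1% and 26.5% of the Atp5b level. The main coding transcript had 1376 and 1334 TPM for Atp5b and 756 and 756 for Atp5a1. The other subunits of the catalytic head and stalk were Atp5c1, with 470 and 464 TPM, Atp5d, with 457 and 436, and Atp5e, with 643 and 658. The peripheral stalk and small membrane subunits, apart from Atp5l, lay between Atp5k, with 291 and 305 TPM, and Atp5j, with 711 and 734.

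The c subunit forms the rotating ring of the enzyme and is made from 3 genes that encode the same mature protein. Atp5g3 had 904 and 938 TPM, Atp5g1 444 and 468, and Atp5g2 201 and 223, and the 3 were separated from each other. Their sum was 1589 ± 56.9 TPM, or 0.824 ± 0.0321 of the level of Atp5b over all its transcripts. Atp5g2 and Atp5g1 share reads with the pseudogenes Gm10175 and Gm10039, and with these pooled the sum was 1971 ± 67.5 TPM. Pooled, Atp5g2 had 464 ± 10.9 TPM.

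The lowest nuclear value of the complex, 160 and 173 TPM, belonged to Atp5l, subunit g. Its pseudogene Gm10221 does not differ from it over 309 bases, was listed at 620 and 686 TPM and took 75.3% and 75.7% of the pooled reads. Pooled, Atp5l had 679 ± 46.4 TPM and was among the higher genes of the complex. Of genes of the complex that carry other names, Usmg5 had 909 and 886 TPM and Atpif1, the ATP synthase inhibitor, 772 and 774. These were named after their levels had been seen.

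**Figure D4:**
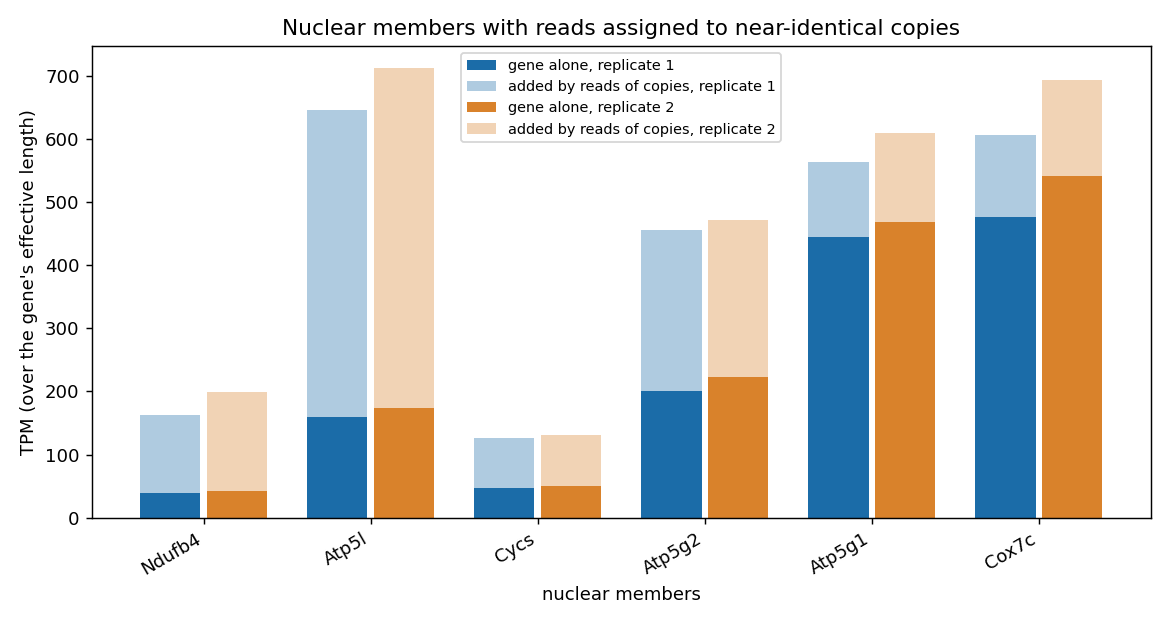
TPM of the 6 nuclear genes whose pooled level was over 1.2 times their own, in both libraries, as deposited (solid bars) and with the reads of near-identical copies added over the gene's effective length (pale bars). For Ndufb4, Atp5l, Cycs and Atp5g2 the pale part is the larger one in both libraries.

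Copies were searched for genes of the set only, so no share over all genes can be set beside these counts. In all, 33 of the 106 genes had 56 copies of at least 95% identity over at least 80% of the copy, and 17 of these copies had a mean of 5 TPM or more. For 8 genes the copies held over 50% of the pooled reads in both libraries: mt-Nd4l, mt-Co3, mt-Nd3, mt-Co2, Ndufb4, Atp5l, Cycs and Atp5g2. Intervals more than 1.5-fold wide in both libraries were found for 5 of the 104 genes whose mean was at least 5 TPM, against 3.83% of the 11261 genes at that level. Those were mt-Co3, mt-Co2, mt-Nd3, mt-Nd4l and Cox8b. Ndufb4, Atp5l and Cycs did not pass this width in both libraries, so it does not mark every gene whose copies hold reads. The interval of Ndufb4, 1.27-fold wide in each library, was still the widest among the nuclear structural genes of complex I.

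Genes around the chain, from lists of genes outside the rule, had list medians below the 296 TPM of the nuclear subunits, though single genes such as Mdh2 were above it. Of 38 further assembly factors 37 passed 1 TPM, and their median was 31.8 ± 1.90 TPM. Uqcc2, which serves complex III assembly, was the highest with 218 and 231 TPM, and Sdhaf3, for complex II, the lowest detected with 4.29 and 3.89. Detection extended to all 20 genes for the upkeep and expression of mitochondrial DNA, whose median was 31.7 ± 1.76 TPM, from Mterf1b at 2.42 and 2.80 to Slirp, which binds mitochondrial mRNA, at 240 and 268. Citric acid cycle genes, all 13 of them detected, were at a median of 107 ± 1.98 TPM, with Mdh2 highest at 389 and 379 and Suclg2 lowest at 70.9 and 69.5.

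Among 11 nuclear regulators of mitochondrial genes 9 passed 1 TPM, and their median was 24.1 ± 0.481 TPM. Gabpb1, part of the GABP factor, and Nrf1 had the highest mean levels, with 52.0 and 51.7 TPM for Gabpb1 and 52.8 and 50.4 for Nrf1, and their intervals overlapped. Ppargc1a, the coactivator known for driving mitochondrial formation in brown fat and muscle, had 5.08 and 5.01 TPM, and Ppargc1b was the lowest detected with 2.61 and 2.72. Esrrg and Esrrb were below 1 TPM in at least 1 library. None of the 74 genes on these 4 lists whose mean was at least 5 TPM was apart between the libraries. Over all 11261 genes at that level 0.364% were.

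NRF1 and GABP are known to bind promoters of respiratory chain genes. Promoter sequence from RefSeq (GRCm38.p6), from 250 bases before to 50 after a gene's start, was matched for 77 of the 93 nuclear genes. The NRF1 motif (GCGCA, any base, then GCGC), searched on both strands, was found for 19 of the 77, or 24.7%. It was found for 11.2% of the 10420 matched genes detected in these libraries, for 13.7% of 1223 other protein-coding genes of 100 TPM or more, and for 5.19% of all 27025 genes in the table. Its letters read nearly the same on the opposite strand, so a stretch that fits on both strands was counted once.

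Below is, for each complex, the structural gene with the most such matches before its start, with ties settled by level. Complex III had no match wholly before the start, though no promoter was matched for Uqcrb, Uqcrq, Uqcrc2 and Cyc1. Uqcrc1, counted above, had 2 matches in the whole stretch searched. The windows show the matches in capitals, 5′ to 3′ along the gene's strand, all on the minus strand.
Ndufb4 (chr16:37654369-37654579): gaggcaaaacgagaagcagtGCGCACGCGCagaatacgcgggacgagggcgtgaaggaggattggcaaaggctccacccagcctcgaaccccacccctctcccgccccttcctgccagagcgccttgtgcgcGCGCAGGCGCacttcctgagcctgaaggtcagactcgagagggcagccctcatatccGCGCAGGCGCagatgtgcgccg
Sdha (chr13:74350241-74350358): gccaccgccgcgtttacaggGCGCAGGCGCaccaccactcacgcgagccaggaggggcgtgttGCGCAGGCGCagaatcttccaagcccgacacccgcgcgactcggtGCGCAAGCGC
Cox6a1 (chr5:115349046-115349140): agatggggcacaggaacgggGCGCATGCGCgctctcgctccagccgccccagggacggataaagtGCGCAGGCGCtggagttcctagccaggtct
Atp5h (chr11:115420031-115420080): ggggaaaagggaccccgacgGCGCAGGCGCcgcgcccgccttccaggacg

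Ndufb4 and Sdha each had 3 matches before the start, Cox6a1 had 2 and Atp5h 1. CCGGAAG, the core bound by GABP and its relatives, was found for 23.4% of the 77 genes, 19.6% of detected genes and 26.1% of the other abundant genes. AAGATGG, a YY1 motif, was found for 15.6%, 8.13% and 11.1% in the same order. GGGCGG, bound by SP factors, was found for 46.8%, a lower share than 69.1% and 73.9%, and TATAAA for 9.09% against 9.00% and 10.6%. The median GC content of the 250 bases before the start was 57.4% for these genes and 59.6% for detected genes. These matches describe the letters of the promoters and no binding was measured.

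Large differences between the libraries were rare in these genes, as they were over all genes. Of the 104 with a mean of 5 TPM or more, none differed 2-fold or more with intervals apart, after scaling the libraries by TMM. Over all genes 41 of 11261, or 0.364%, did, so none among 104 is close to the share over all genes. Leaving out the 2-fold minimum and scaling the intervals as well, 56 were higher in replicate 2 and 2 (mt-Nd1 and mt-Nd5) in replicate 1, where 9.21% and 4.32% of all genes tested were. Without scaling, 19 were higher in replicate 2 and 9 in replicate 1, so this split rests on the scaling, which adds 0.07 to each log2 ratio. The background without scaling was 2.84% and 14.6%.

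Of the 58 genes called after scaling, 54 were nuclear genes higher in replicate 2, 59.3% of the 91 tested. The shifts were small. The median log2 ratio of replicate 2 over replicate 1 was 0.12 over the nuclear genes, and 81 of the 91 were above 0. For the mitochondrial genes it was 0.002, with 7 of 12 above 0, and over all 11245 genes with a finite ratio 0.013. Examples are Cox7c with 477 and 542 TPM (log2 ratio 0.26), Ndufb7 with 267 and 304 (0.26) and Ndufa12 with 249 and 284 (0.26).

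Gene length moved with this shift. Nuclear genes under 600 nt had a median log2 ratio of 0.15 (n = 34), those of 600 to 1000 nt 0.12 (n = 31) and those of 1000 nt or more 0.06 (n = 26). Among other protein-coding genes of 100 TPM or more the medians were 0.16 (n = 101), 0.12 (n = 299) and 0.04 (n = 1112) in the same classes. By scaled intervals, 73.5%, 58.1% and 42.3% of the nuclear genes of the chain were higher in replicate 2, and 69.3%, 57.2% and 26.2% of the other abundant genes. The median length of the nuclear genes of the chain was 703 nt, and that of the other abundant genes 1539 nt. The part of length in the difference between the libraries was not tested.

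**Figure D5:**
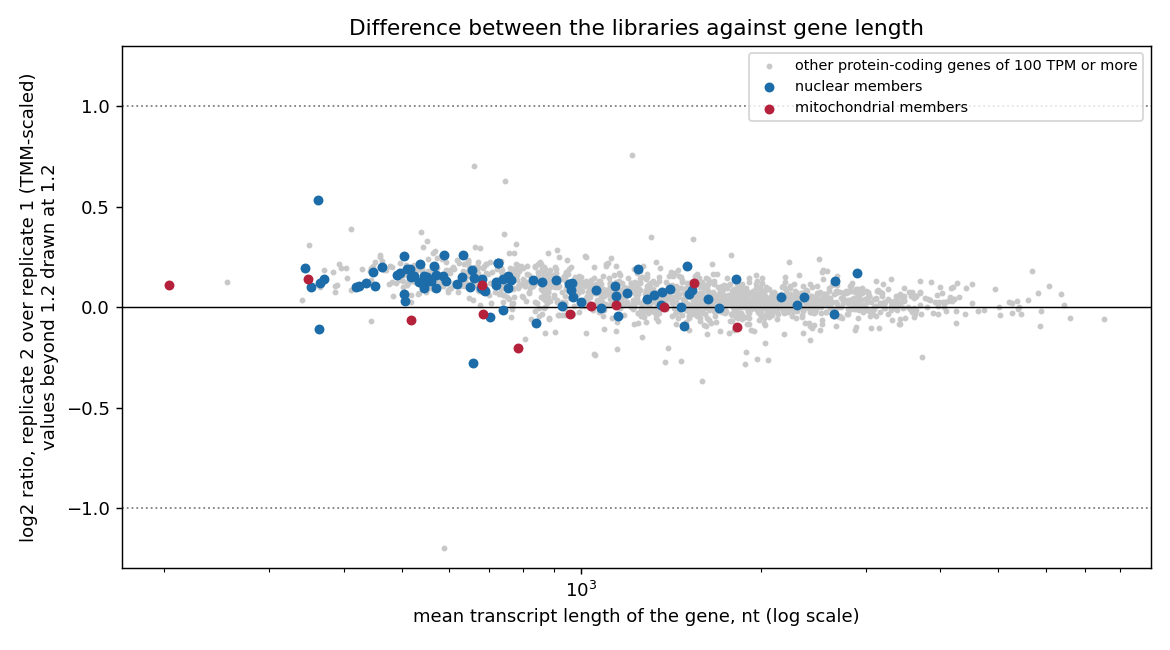
Log2 ratio of replicate 2 over replicate 1 after TMM scaling against the mean transcript length of a gene (log scale), for nuclear (blue) and mitochondrial (red) genes of the chain and for 1512 other protein-coding genes of 100 TPM or more (grey). No coloured point passes the dotted lines at 2-fold, and short genes of both kinds lie mostly above 0.

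The transcript tables show which isoform carried each level. A single transcript is listed for 43 of the 106 genes, and for 72 the top transcript held 90% or more of the TPM. The top transcript was protein-coding in GENCODE M21 for 98 genes. The others were Atp5f1, Atp5j, Cox5b, Ndufa5, Ndufa10, Ndufb4, Ndufaf4 and Ndufaf8. The same counts were not made over all genes, so they describe this set only. For Atp5f1, stalk subunit b, a transcript marked for nonsense-mediated decay held 63.5% and 65.1% and the 1604-nt coding one 34.6% and 33.1%. In Ndufa5 a 453-nt transcript of no coding type held 95.3% and 92.5%, and in Cox5b one of 362 nt held 58.8% and 56.9%. Ndufv3, whose protein exists in a short and a long form, had 80.3% and 80.6% in its 485-nt transcript and 19.2% and 18.5% in the 1537-nt one. Such shares are estimates from short reads over overlapping transcripts.

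Exons of 27 of the genes overlap those of a listed gene on the opposite strand and exons of 9 those of a listed gene on the same strand. Among the first are Atp5j, which overlaps Gabpa, and Ndufs1, which overlaps Eef1b2. How the reads of such overlaps were divided is not given in the sources used here. Overlaps were not counted for genes outside the set, so no share over all genes is given.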

How the data were processed

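Per the labels, total RNA of whole lung was sequenced in 2 libraries. The authors deposited a gene and a transcript table per library. Per the deposited text they rest on mm10 and GENCODE M4. The program and the use of strand were not given in the sources used here. Per the file headers, the tables hold expected counts (estimated reads, not whole numbers), TPM and posterior mean TPM, bounds of a TPM interval whose level is not stated, and the percent of a gene's TPM per transcript. The deposited interval lies around the posterior mean, and the TPM fell outside it in both libraries for 20 of the 106 genes. Names and positions came from GENCODE M21 (GRCm38), which matched 97.961% of Ensembl identifiers. Unmatched ones held 0.207% and 0.206% of the count. At 1 kb of effective length, 3 reads equal 0.113 and 0.122 TPM. This limit takes in counting error only, as PCR copies of 1 molecule cannot be seen.

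Expected counts were rounded for TMM (edgeR 4.0.16) and DESeq2 1.42.0 in R 4.3.3. Copies were found with BLAST+ 2.17.0 among M21 transcripts. Medians of a complex take detected structural genes. Genes apart between libraries had a mean of 5 TPM or more, 2-fold scaled TPM and intervals that do not overlap. This rule was checked on simulated counts. The genes given with values per library are the mitochondrial genes, the extremes and catalytic genes of each complex, and the paralogue sets, though not every catalytic gene is reported here. From other lists they are the highest and the lowest gene. The members, lists and this rule were chosen with earlier results of these data known. Replicate labels are taken as separate pools.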

Additional observations from a re-analysis of the deposited data

How the results depend on the processing

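With 1 group of 2 libraries, values are descriptions, and 3 reads set the limit of detection. Of 79 recomputed values of 13 results, 54 stayed near the reported value and 25 moved further. Near means within the spread between libraries, within 1.5 times for counts or within 0.05 for median log2 ratios. Several of the 54 could not have moved. With 2 libraries, leaving 1 out cannot take a level beyond their SD. Keeping every structural gene changes nothing in complexes II, III and V, where all were detected. DESeq2 scaling adds 0.073 to each log2 ratio, close to the 0.072 of TMM. The tally is thus no measure of how firm the results are. With TPM over full transcript length the medians were 239 TPM for complex I, 252 for complex II, 382 for complex III, 459 for complex IV, 521 for complex V and 279 for nuclear structural genes, so complexes I and II changed order, and the share was 5.17%. With posterior mean TPM complex III had 393 TPM and the mitochondrial genes 1795, with a ratio of 6.20. Adding the TPM of copies gave 328 TPM for nuclear and 2291 for mitochondrial genes, a ratio of 7.75 and a share of 7.01%. Pooling reads, an alternative chosen after seeing the data, gave 650 TPM for complex IV, 622 for complex V, 312 for nuclear and 2291 for mitochondrial genes, a ratio of 7.35 and a share of 6.97%. With every structural gene kept, complex IV had 439 TPM. Without scaling, the median log2 ratio was 0.045 for nuclear and -0.069 for mitochondrial genes. No gene of the set was apart under another scaling, estimate, pseudocount, minimum or 1.5-fold. With intervals alone 28 were, and 58 with scaled intervals, the latter chosen after seeing the data. Leaving out either library, the number detected was 103 to 104 and the ratio of mitochondrial to nuclear medians 3.23 to 3.85. The comparison of libraries needs both, so no value exists for it with 1 left out. No paired analysis was possible because there is a single group.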
